A study of Arabidopsis thaliana with 20 samples.

Results

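The 33 probes described here had a signal well above background on every array of wild-type, single-mutant and double-mutant Arabidopsis roots, and on neither array of the arr1/10/12 triple mutant. They are 33 of the 43603 probes of the array, and 9 of them could be paired with a gene: AT1G06170, AT1G71690, AT1G57570, CLE45, ENODL20, AT1G10300, AT1G75300, AT2G16960 and PP2-A10. The members were chosen from measured values. A probe had to carry the scanner software's mark for a signal well above background on all 18 arrays outside arr1/10/12 and on neither array of arr1/10/12. Its mean log2 signal in each double mutant had to lie within 0.5 of untreated WT, its mean in cytokinin-treated WT within 0.5 of mock-treated WT, and its mean in untreated WT at 7 or more. CYP93D1 was left out by the rule, and its probe also missed the limit on the double mutants, with arr1/12 minus WT at −0.84. The low signal in arr1/10/12 and the near-constant level elsewhere are therefore how the probes were found, and no test is given for them.

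The series holds 20 one-colour Agilent arrays, 2 biological replicates for each of 10 groups, all from roots of 10-day-old Col-0 seedlings grown under continuous light. The untreated mutants were the triple arr1/10/12, 3 doubles (arr1/10, arr1/12, arr10/12) and 3 singles (arr1, arr10, arr12), built from T-DNA alleles of ARR1, ARR10 and ARR12, with 1 allele for each gene (arr1-3, arr10-5, arr12-1). WT seedlings were treated for 1 hour with 5 μM N6-benzyladenine, a cytokinin (WT+CK), or with mock solution (WT+mock), or were left untreated (WT). No mutant was treated with cytokinin. Roots were cut at about the junction with the hypocotyl, so each value is an average over all cell types of the root, in which fewer cells of a type and less RNA per cell cannot be told apart.

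Cytokinin is a plant hormone that restrains root growth and shapes the vascular tissue of the root. Membrane histidine kinases bind it and pass phosphate through phosphotransfer proteins to the type-B response regulators, DNA-binding transcription factors of which ARR1, ARR10 and ARR12 are the main ones acting in roots. Among the genes that they switch on are the type-A response regulators, which damp the pathway. The 3 factors overlap in function.

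The probes of ARR10 and ARR12 were low on every array labelled with their mutation. The log2 signal of ARR10 was between 4.74 and 8.57 on those arrays and between 13.25 and 13.85 on the others, and that of ARR12 was between 3.63 and 5.74 on those arrays and between 11.72 and 12.83 on the others. ARR1 was low on the arr1/10/12, arr1/10 and arr1/12 arrays (7.58 to 8.28) but not on the arrays labelled arr1 (12.27 and 12.52, against 11.99 and 12.01 in untreated WT). Results for the arrays labelled arr1 are given under that label, with this limit. The arr1/10/12 arrays stood slightly apart in depth of signal, with 71.8% and 72.2% of probes well above background against 73.2% to 78.8% on the other arrays, and a median log2 signal before normalization of 8.65 and 8.21 against 8.75 to 9.61. The part of this difference in the selection of the members was not tested. Both arr1/10/12 arrays shared their slides with WT, replicate 1 with replicate 1 and replicate 2 with replicate 2.

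Of the probes, 30443 were well above background on all 18 other arrays, and 540 of these (1.77%) were not on either arr1/10/12 array. A probe is called dark in a group here where it is well above background on neither array of that group. The limit on the double mutants left 306 of the 540, the limit on cytokinin 211, and the limit on the WT level the 33 members. The same pattern of marks was far rarer in any other group. No probe was dark only in arr1/10, arr10/12, arr1, arr10 or arr12, 4 were dark only in arr1/12, 3 only in WT+CK, 8 only in WT+mock and 1 only in WT. The mirror pattern, a probe well above background in 1 group only, was met by 134 probes in arr1/10/12 and by 1 to 25 probes in the other groups. These counts follow the marks, which were lost in arr1/10/12 mostly by dim probes, and they are a description. Among the 27568 probes with a WT level of 7 or more that were well above background on the 18 other arrays, 132 were dark in arr1/10/12, or 0.479%.

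The members were probes of low signal. Their mean log2 normalized signal in untreated WT was between 7.02 and 9.51 with a median of 7.58, against a median of 10.77 over the 30443 probes. In arr1/10/12 the mean log2 signal of a member was between 3.16 and 5.37, with a median of 4.55. Arr1/10/12 lay below WT by 1.72 to 5.36 on the log2 scale, with a median of −3.08. Since a probe that is not well above background has only a bound, the ratio is written as at least N-fold. It sets the WT mean against the higher of 2 values on each arr1/10/12 array. These are the probe's own value and the lowest value of any probe well above background there. On that basis WT exceeded arr1/10/12 by at least 3.28-fold to at least 37.4-fold, with a median of at least 8.30-fold. On replicate 1 that lowest value was 2.18 and every member was at 3.62 or above, so the bound there was the member's own value. On replicate 2 it was 3.71, against a median of 4.47 over the members. Each ratio given as at least N-fold holds for the chosen processing only and is not a lower limit on the ratio of transcripts. Where a member's own value was the higher on both arrays, it is the measured ratio. The lowest value comes from the most extreme probe of an array, and the 1st percentile of probes well above background was 5.31 and 5.21. For every member, the lowest of the 18 other arrays lay above the higher arr1/10/12 array, by 1.46 (AT1G10300) to 4.49 (AT1G06170) on the log2 scale, while the 18 other arrays of a member themselves spanned 0.48 to 1.87. The 2 arr1/10/12 arrays differed from each other by more than 1 in 4 members. Group means over the members had a median of 7.31 (arr1/10), 7.32 (arr1/12), 7.45 (arr10/12), 7.51 (arr1), 7.58 (arr10), 7.53 (arr12), 7.50 (WT+CK) and 7.53 (WT+mock). The lowest mean of any member in these groups was 6.33, in WT+mock.

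The label of silenced genes goes further than the spots do. The scanner software has a second, weaker mark for a signal significantly above the local background, and 41 of the 41 member spots carried it on replicate 1 of arr1/10/12 and 39 of 41 on replicate 2. The exceptions were the single spot of PP2-A10 and 1 of the 2 spots of A_84_P269530. With that weaker mark in the rule, an alternative chosen after the data were seen, no probe met it. The unprocessed median pixel intensity of the members was 52.0 to 86.5 on replicate 1 of arr1/10/12 and 48.0 to 73.5 on replicate 2, against 143.5 to 652 and 119 to 664 on the WT arrays. The local background around these spots had a median of 26 and 20 on the arr1/10/12 arrays and 27 and 21.5 on the WT arrays. The 308 negative control spots, which match no plant transcript, had a median of 39.8 and 42.5 on the arr1/10/12 arrays and a 95th percentile of 53.3 and 56.8, against 36 and 42 and a 95th percentile of 47.6 and 51 on the WT arrays. On replicate 1, 1 member was at or below that percentile, and on replicate 2, 5 members were, and none was on any other array. In arr1/10/12 most members thus lay above the 95th percentile of spots with no target, at a median pixel intensity of 72 and 61.5. Whether the remaining signal came from the transcript cannot be told from these spots.

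The size of the difference depended on how background and scale were handled. With subtraction by the scanner software and quantile normalization, the median difference between arr1/10/12 and WT was −3.08. It was −2.74 with each array scaled to its 75th percentile, and −1.52 after a model-based background correction with an offset (normexp), which compresses low signals. As a ratio of WT over arr1/10/12 from the measured values, the median was 8.45-fold, 6.69-fold and 2.86-fold in turn. The ratios given as at least N-fold belong to the first of these. The mark also splits probes of similar level, since 59 further probes met all other limits and were well above background on 1 of the 2 arr1/10/12 arrays. The mean log2 signal of these 59 in arr1/10/12 had a median of 5.36, against 4.55 for the members.

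The 9 members paired with a gene cover several functions, and they belong to different gene families. RefSeq's annotation of assembly TAIR10.1 places 7 on chromosome 1 and 2 on chromosome 2. The pairing rests on part of a list of genes that the study called as changed in these arrays, most of them on these chromosomes, so that the other 24 members are unnamed here and the members' positions cannot be compared with those of other genes.

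Among the named members, AT1G06170 encodes a transcription factor of the basic helix-loop-helix family, known from work on the tapetum of the anther, where it acts with close relatives in pollen development. Its log2 signal was 3.80 and 3.23 on the arr1/10/12 arrays, against 8.63 and 8.34 on the WT arrays. It was 8.50 and 8.29 (arr1/10), 9.04 and 8.43 (arr1/12), and 8.42 and 8.59 (arr10/12). The WT level was at least 26.5-fold that of arr1/10/12, the highest bound of the named members. The singles lay at 8.64 and 8.67 (arr1), 8.61 and 8.55 (arr10), and 8.49 and 8.57 (arr12). Cytokinin-treated roots had 8.35 and 8.32 and mock-treated roots 8.53 and 8.60. All 18 arrays outside arr1/10/12 thus fell within 0.74 of each other.

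Small secreted peptides of the CLE family signal through receptor kinases, and CLE45 is known in the root for restraining the formation of protophloem, the first conducting cells of the phloem. The log2 signal of CLE45 was 4.72 and 4.50 in arr1/10/12, against 7.49 and 7.71 in WT. In the doubles it was 7.12 and 7.43 (arr1/10), 7.25 and 7.38 (arr1/12), and 7.47 and 7.48 (arr10/12). The mean of each double was below WT, by 0.13 to 0.32, within the limit that the rule sets. In the singles it was 7.33 and 7.43 (arr1), 7.27 and 7.66 (arr10), and 6.89 and 7.57 (arr12), of which replicate 1 of arr12 was the lowest array outside arr1/10/12. It was 7.84 and 7.94 in WT+CK, against 7.54 and 7.51 in WT+mock, a difference of 0.36. WT exceeded arr1/10/12 by at least 7.92-fold. RefSeq lists a long noncoding gene, AT1G69587, that overlaps CLE45, and which of the transcripts the probe reads was not tested.

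PP2-A10 belongs to the phloem protein 2 family, lectin-like proteins first known from phloem sap. It was the dimmest named member in arr1/10/12, with log2 signals of 3.67 and 2.64, against 6.99 and 7.07 in WT. It was 6.68 and 6.82 (arr1/10), 6.74 and 6.53 (arr1/12), and 6.70 and 6.73 (arr10/12). All 6 double-mutant arrays lay below both WT arrays, but the rule used both groups and the share of all probes with this order was not counted. The singles were 6.81 and 6.88 (arr1) and 6.69 and 7.13 (arr10), while arr12 had 6.87 on replicate 1 and lay between both WT arrays on replicate 2. PP2-A10 stood at 8.28 and 8.40 in WT+CK, against 7.90 and 7.78 in WT+mock, and at 0.497 this difference was the one closest to the limit of 0.5 among the members. Both treated groups lay above all 16 untreated arrays, an order not counted over all probes, and PP2-A10 had the widest span outside arr1/10/12, 1.87. Its ratio of WT over arr1/10/12 was at least 10.1-fold. The annotation has it overlapping AT1G10150, a neighbour whose probe could not be named.

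ENODL20 encodes an early nodulin-like protein, a family of small cell-surface proteins related to the copper-binding phytocyanins. Its log2 signal was 4.49 and 4.47 in arr1/10/12, against 7.53 and 7.60 in WT. It was also one of the least variable members, with a span of 0.62 over the other 18 arrays. The doubles were 7.18 and 7.20 (arr1/10), 7.28 and 7.20 (arr1/12), and 7.50 and 7.25 (arr10/12). The singles were 7.63 and 7.51 (arr1), 7.58 and 7.71 (arr10), and 7.80 and 7.73 (arr12), and the treated groups 7.52 and 7.44 (WT+CK) and 7.50 and 7.42 (WT+mock). WT exceeded arr1/10/12 by at least 8.51-fold.

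AT1G57570 is annotated as a jacalin-related lectin, one of a large family of carbohydrate-binding proteins. It was read by 2 spots and had log2 signals of 3.75 and 3.33 in arr1/10/12, against 7.64 and 7.64 in WT. The bound on the ratio was 15.0-fold. The doubles were 7.23 and 7.33 (arr1/10), 7.34 and 7.08 (arr1/12), and 7.44 and 7.59 (arr10/12). The singles were 7.55 and 7.66 (arr1), 7.89 and 7.92 (arr10), and 7.90 and 7.58 (arr12). It was 7.32 and 7.09 in WT+CK, 7.24 and 7.03 in WT+mock. Both treated groups thus lay below untreated WT, an order not counted over all probes.

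AT1G71690 is described as an unknown protein in the study's list of changed genes. Its log2 signal was 4.45 and 4.85 in arr1/10/12, against 7.94 and 8.18 in WT, a ratio of at least 10.6-fold. The doubles were 7.90 and 7.85 (arr1/10), 7.78 and 8.09 (arr1/12), and 8.08 and 7.78 (arr10/12), and the singles 8.34 and 8.07 (arr1), 8.33 and 8.28 (arr10), and 8.40 and 8.53 (arr12). Both arr10 and both arr12 arrays lay above WT, an order not counted over all probes. It was 8.15 and 7.70 in WT+CK and 7.98 and 8.23 in WT+mock. It overlaps a neighbour, AT1G71691, in the annotation.

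AT1G75300, annotated as a putative isoflavone reductase, belongs to a family of reductases of phenolic compounds. Its 2 spots gave log2 signals of 4.91 and 4.45 in arr1/10/12, against 7.05 and 7.27 in WT, at least 5.56-fold. The doubles were 6.88 and 7.09 (arr1/10), 7.04 and 6.99 (arr1/12), and 7.31 and 7.30 (arr10/12). All 6 single-mutant arrays lay above both WT arrays, at 7.48 and 7.55 (arr1), 7.41 and 7.49 (arr10), and 7.62 and 7.46 (arr12). The WT arrays entered the rule, and the share of all probes with this order was not counted. AT1G75300 was at 7.01 and 7.17 in WT+CK and 7.69 and 7.06 in WT+mock. A long noncoding gene, AT1G75295, overlaps it.

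AT1G10300 is annotated as a GTP-binding protein and AT2G16960 as a member of the importin beta-2 family, which carries proteins into the nucleus. AT1G10300 had log2 signals of 4.98 and 4.72 in arr1/10/12, against 7.28 and 7.15 in WT, at least 5.16-fold, the smallest bound of the named members. Its doubles were 7.71 and 7.48 (arr1/10), 7.35 and 7.27 (arr1/12), and 7.57 and 7.40 (arr10/12). Its singles were 6.74 and 6.96 (arr1), 7.15 and 6.44 (arr10), and 6.83 and 7.33 (arr12), with only replicate 2 of arr12 above the lower WT array, and the treated groups were 7.54 and 7.38 (WT+CK) and 7.57 and 7.44 (WT+mock). Replicate 2 of arr10 came closest to arr1/10/12 of any array. AT2G16960 had 4.31 and 4.75 in arr1/10/12, against 6.89 and 7.30 in WT, at least 5.91-fold. Its doubles were 7.61 and 7.31 (arr1/10), 6.78 and 6.93 (arr1/12), and 6.96 and 7.05 (arr10/12), and its singles 6.52 and 6.90 (arr1), 7.16 and 7.26 (arr10), and 6.89 and 7.38 (arr12). With 7.26 and 6.98 in WT+CK and 7.25 and 7.19 in WT+mock, it overlapped WT in both treated groups.

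The annotation places 90 genes within 5 places of the 9 named members, of which 14 could be paired with a probe. None of the 14 met the rule. The lowest relative to WT were the long noncoding gene AT1G69572 near CLE45, at −2.91, and MEE15 next to AT2G16960, at −2.72. AT1G69572 had a WT level of only 5.07 and was also not well above background in arr1/10/12. MEE15 had a WT level of 10.05 and was well above background on both arr1/10/12 arrays. These neighbours too were paired through the study's list of changed genes, so a low neighbour is no finding.

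The 24 unnamed members had WT levels of 7.02 to 9.51 and ratios of WT over arr1/10/12 of at least 3.28-fold to at least 37.4-fold. The 5 with the highest WT level were A_84_P21891, A_84_P269530, A_84_P23467, A_84_P18476 and A_84_P848261. A_84_P21891 had log2 signals of 3.76 and 4.80 in arr1/10/12, against 9.40 and 9.61 in WT, at least 37.4-fold, the largest bound of all members. It was 8.97 and 9.43 (arr1/10), 8.86 and 9.16 (arr1/12), and 9.58 and 9.76 (arr10/12). All 6 single-mutant arrays, at 9.90 to 10.46, lay above both WT arrays, an order not counted over all probes. Its mean in arr1/12, 0.497 below WT, was the closest of the members to the limit on the doubles. A_84_P269530 had 4.60 and 3.23 in arr1/10/12, against 9.32 and 9.24 in WT, at least 34.8-fold. A_84_P23467, with 4.06 and 4.34 in arr1/10/12, against 8.33 and 8.42 in WT, reached at least 18.1-fold. These 3 had the widest gaps among the unnamed members, 3.50 to 4.40, between arr1/10/12 and the lowest other array. A_84_P18476 had 5.14 and 5.20 in arr1/10/12, against 8.20 and 8.15 in WT, at least 8.02-fold. A_84_P848261 had 4.75 and 5.06 in arr1/10/12, against 7.81 and 8.35 in WT, at least 9.03-fold.

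Over the 18 arrays outside arr1/10/12, on which the rule limited how far group means could differ, Pearson's r between 2 members had a median of 0.03 over 496 pairs of the 32 members with no missing value, with a 5th to 95th percentile of −0.51 to 0.61 and 12 pairs above 0.7. The same was not computed for other probes. These arrays share 10 groups, slides and scan days, and the values are a description. In the double mutants, which the rule held within 0.5 of WT, the median difference was −0.17 for arr1/10, −0.19 for arr1/12 and −0.07 for arr10/12, against −0.01 over all probes tested in each. The members were held to a WT level of 7 or more and to the limits of the rule, and the other probes were not. Of the 33 members, 16 were below WT in all 3 doubles and 5 were above WT in all 3. The same was not counted over all probes, and the 3 doubles are set against the same WT arrays, so no lean is read from these counts. Cytokinin against mock gave −0.46 to 0.50, with a median of 0.08.

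Nearest to the limits, A_84_P75064 stayed outside with a double mutant 0.501 from WT, and A_84_P541319 with cytokinin 0.501 from mock. AtMYB103, a transcription factor of secondary cell walls, stayed outside with a WT level of 6.99, and A_84_P22133 entered with 7.02. Among the 22136 probes that met all other limits and stayed well above background on both arr1/10/12 arrays, 570 had a mean difference from WT at least as large as the smallest of the members and 51 at least as large as their median. These 51 had a median WT level of 11.3. Differences of this size were therefore also seen among brighter probes, on which the mark does not change.

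The single mutants were tested with limma, since the rule used only their marks and not their changes. The WT arrays entered both the rule and this comparison. No member passed an adjusted p under 0.05 in arr1, arr10 or arr12, where 34, 15 and 43 of the 34034 probes tested did (0.0999%, 0.0441% and 0.126%). Without adjustment, 0, 2 and 5 members had a p under 0.05, beside 10.5%, 8.46% and 9.8% of all probes. Over the members, the median difference from WT was −0.11 for the arrays labelled arr1, −0.02 for arr10 and 0.01 for arr12, against −0.01 over all probes tested in each comparison. Member values ran from −0.51 to 0.45 in arr1, from −0.42 to 0.68 in arr10 and from −0.55 to 0.77 in arr12, with standard errors of 0.09 to 0.32. Both arrays lay above both WT arrays in 5, 6 and 9 members and below both in 9, 7 and 3 (arr1, arr10, arr12), beside 21%, 20.1% and 16.2% of all probes above and 20.4%, 18.4% and 14% below. All 3 single-mutant differences lay within 0.5 in 29 members, and the same was not counted over all probes. A_84_P517367 was the member with the smallest p. Its log2 signal was 8.47 and 8.47 in arr12, against 7.88 and 7.56 in WT, a difference of 0.75 (standard error 0.13, adjusted p = 0.0692 from limma, and 0.0393 with a replicate block, a term for the replicate number that the arrays share). With the block it was the only member called in a single mutant, beside 0.74% (arr1), 0.244% (arr10) and 0.605% (arr12) of all probes.

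The difference between mock-treated and untreated WT was not itself part of the rule, but both groups entered it, WT+mock through its marks and the limit on cytokinin, and WT through its marks, its level and the limit on the doubles. The members called are therefore among probes selected in part on these arrays. In WT+mock against untreated WT, 7 members passed an adjusted p under 0.05, beside 15.8% of all probes tested, and the members' share was 21.2%. With a replicate block 8 members passed, beside 23% of all probes. Both WT+mock arrays lay above both WT arrays in 6 members and below both in 11, beside 24.3% and 30% of all probes. A_84_P18476 fell, with log2 signals of 7.44 and 7.52 in WT+mock, against 8.20 and 8.15 in WT (−0.69, adjusted p = 0.00211 from limma). A_84_P588319 had 7.08 and 7.12 in WT+mock, against 7.63 and 7.87 in WT (−0.65, adjusted p = 0.00402 from limma), and A_84_P552933 had 6.18 and 6.49 in WT+mock, against 7.23 and 7.05 in WT (−0.80, adjusted p = 0.00229 from limma). AT1G57570 also fell, by 0.50 (adjusted p = 0.0437 from limma). The members that rose were PP2-A10 by 0.81 (adjusted p = 0.0427), A_84_P861922 by 0.60 (adjusted p = 0.0335) and A_84_P517367 by 0.44 (adjusted p = 0.0441), all from limma. A_84_P18476, A_84_P588319 and A_84_P552933 were called with any single array of the comparison left out, whereas AT1G57570 and PP2-A10 lost their call without replicate 1 or 2 of WT+mock or of WT, A_84_P861922 without replicate 2 of WT+mock or either WT array, and A_84_P517367 without either WT+mock array or replicate 2 of WT. The count was then 3 to 5 of 33. The WT+mock and WT arrays were on different slides, so that slide and mock treatment cannot be told apart. On the WT+mock arrays the summed signal of the paired root hair markers was 10159 to 13599, against 21732 to 28473 in WT, and their part in these differences was not tested. A_84_P552933 had no value on replicate 2 of arr1/10, and the fit used the other array of that group.

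Of 33 genes of cytokinin signalling listed for comparison, 14 could be paired with a probe, again mostly genes that the study called as changed, so that their directions are not independent. All 14 were lower in arr1/10/12 than in WT by limma (beside 31.1% of all probes lower and 23.2% higher), 3 of them the mutated genes ARR1, ARR10 and ARR12. In WT+CK, 11 were higher than in WT+mock (beside 3.54% of all probes) and none lower (beside 3.03%). ARR15, a type-A regulator, was the 1 paired gene of the list with the background marks of the members. Its log2 signal was 3.07 and 2.40 in arr1/10/12, against 8.06 and 8.09 in WT. Unlike the members, ARR15 exceeded the limits on the doubles and on cytokinin, with WT+CK above WT+mock by 4.65. The cytokinin receptor WOL stayed well above background, at 9.54 and 9.71 in arr1/10/12, against 10.71 and 10.60 in WT (a difference of −1.03, adjusted p = 0.000131 from limma).

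The markers of tissues in a root sample that could be paired also differed in arr1/10/12. All 4 of the 8 listed root hair genes that could be paired were lower, with a summed normalized signal of 5924 to 8437 in arr1/10/12, against 21732 to 28473 in WT. Both paired green-tissue genes of 13 listed, LHCA3 and PSBTN of the photosystems, were higher, with a sum of 25873 to 70369 in arr1/10/12, against 7708 to 8387 in WT. The nitrate transporter gene NRT2:1, 1 of 6 listed root genes, was at 12.29 and 12.76 in arr1/10/12, against 11.67 and 11.93 in WT. They too were paired through the study's list of changed genes, so their directions are not independent, and the unpaired markers were not seen. Over all probes, limma called 31.1% lower and 23.2% higher in arr1/10/12. All of the paired markers were well above background on both arr1/10/12 arrays, and their part in the low signal of the members was not tested.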

How the data were processed

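Root RNA of each sample was labelled with Cy3 and hybridized to 1 array of 62976 spots. The deposited scanner intensities were background-subtracted and detrended within each array by Agilent Feature Extraction 10.7.1.1, per the file headers. The deposited value table holds log2 intensities, which matched quantile-normalized log2 median pixel signals with no background subtracted, normalized by the authors separately over the untreated and the treated arrays.

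Here, log2 processed signals of 61657 non-control spots were quantile normalized over 20 arrays, spots marked as outliers were left out, and spots were averaged per probe. A probe counted as well above background where at least 1 of its spots was. A single limma fit over 10 groups (limma 3.58.1 in R 4.3.3, residual df 10) covered 34034 probes that, in 1 or more groups, were well above background on each of the 2 arrays, with Benjamini-Hochberg adjustment within each comparison. The fit was tested on simulated data. No spot was saturated, and 2 arrays a group limit the precision.

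Genes were paired by matching the value table's mutant-minus-WT differences, within 0.0005, to the study's list of changed genes, used for identity only and held here in part. This paired 2072 genes. Beyond this match, columns of the authors' own comparisons were not used. Members and gene lists were chosen with earlier results of these data known. All paired members are named by gene. Of the unpaired members, the 5 with the highest WT level, those nearest to a limit and those called in a test are given by probe ID and the others only in ranges. Replicate numbers coincide with slide and scan day in the untreated arrays, and same-numbered arrays deviated together (r = 0.17 to 0.52 over 28 pairs of groups). WT+mock and WT+CK arrays had slides of their own. Alternatives covered normalization, background correction, the limits of the rule, the filter, the block, array weights and each array left out. The median signal replaced the mean in the normexp alternative. Names and overlaps are from RefSeq, assembly TAIR10.1, and no sequence is shown. Python 3.11.15 with pandas 2.3.3 was used for the tables.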

Additional observations from a re-analysis of the deposited data

How the results depend on the processing

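The number of probes meeting the rule, 33, was set by its limits. It was 10 with the doubles held within 0.25 of WT and 59 with 1, 113 with a WT level of 6 or more and 10 with 8 or more, and 49 with cytokinin within 1 of mock. It was 243 with the normexp correction and 126 with levels from the deposited value table, both of which keep the background partly or wholly in the signal and compress differences between dim probes, and all 33 were among them. Scaling to the 75th percentile gave 38, of which 31 were shared. Requiring that the probe lacked the mark for a signal significantly above local background, an alternative added after the data were seen, gave 0. Leaving out 1 array gave 27 to 64, the highest without replicate 2 of arr1/10/12 (64) and without replicate 1 (61). At least 27 of the 33 members were kept each time. Without replicate 2 of WT, for example, 35 probes met the rule, of which 27 were shared, with 7 of the 9 named members. The median difference of arr1/10/12 from WT, −3.08, was −2.74 with 75th percentile scaling and −1.52 with normexp.

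No member was called in arr1 or arr10 under any alternative, and in arr12 only with the replicate block (1 member, A_84_P517367). In WT+mock against WT, 7 members were called with the chosen settings, 4 with no filter on dim probes, 0 in a fit on the 4 arrays alone, where 2 arrays a group set the spread, 8 with the replicate block, and 3 to 5 with each array left out. The 7 members called in WT+mock kept their sign under each alternative. The medians over all members in arr10, arr12 and WT+mock, which lay near zero, changed sign under some, between −0.10 and 0.04 for arr10, −0.11 and 0.11 for arr12 and −0.08 and 0.11 for WT+mock. The deposited value table was normalized separately for untreated and treated arrays, so WT+mock against WT was not run on it. The members' low signal limits their values in arr1/10/12 to bounds. Promoter and probe sequences were not used here.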

Other observations

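A further 122 probes paired with a gene had the members' background marks and missed another limit of the rule, among them 24 that missed only the WT level, 17 only the limit on the doubles and 9 only that on cytokinin. The following 3 transcription factor genes of this kind were picked after their values were seen. LBD14, of the LOB-domain family known for lateral organ and lateral root formation, had log2 signals of 5.19 and 4.12 in arr1/10/12, against 9.48 and 9.71 in WT, at least 30.8-fold, with every double within 0.39 of WT. It missed the rule through the limit on cytokinin, at a mean of 9.54 in WT+CK and 8.56 in WT+mock. Untreated WT had a mean of 9.60, so WT+mock was the group that stood apart. AtMYB103 and MYB58, both known for secondary cell wall formation, lay at the edges of the limits. AtMYB103 had 3.05 and 2.68 in arr1/10/12, against 7.05 and 6.94 in WT, at least 12.2-fold. MYB58 had 4.91 and 4.19 in arr1/10/12, against 7.15 and 7.21 in WT, at least 6.17-fold, and missed through arr1/12, whose mean was 6.67.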
